A study of Mus musculus with 6 samples.

Results

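The endoplasmic reticulum (ER) genes described here are 37 of the 24421 gene symbols in the count table, picked by symbol from a list of unfolded protein response sensors, ER chaperones, disulfide isomerases, ER-associated degradation (ERAD) factors and translocon subunits. All 37 were in the table, and all 37 had enough counts to be tested. The liver RNA was from 4-month-old C57BL/6 males, of which 3 had a Sesn3 knockout (KO, labelled Sesn3 KO) and 3 were wild type (WT). Every mouse of both groups had eaten for 4 weeks a diet with 40% of its energy as fat, 0.5% sodium cholate (a bile salt) and 1.25% cholesterol, so no group on another diet was compared. How the knockout was made, and whether it is limited to a cell type, is not given in the sources used here.

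Secreted and membrane proteins enter the ER through the translocon, are folded there by chaperones and disulfide isomerases, and, if they fail to fold, are sent back to the cytosol for destruction by ERAD. When unfolded proteins build up, the sensors IRE1 (gene Ern1), ATF6 and PERK switch on the unfolded protein response. IRE1 splices Xbp1 mRNA, ATF6 is cut free of the membrane, and both resulting factors switch on chaperone and ERAD genes. Hepatocytes secrete most plasma proteins, and liver also expresses Creb3l3, a membrane-bound factor related to ATF6 that acts on lipid and iron genes.

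Libraries held between 18882220 and 24098512 counts, and no pair agreed within sampling noise (chi-square of counts per degree of freedom from 21.5 to 134 within groups). Sesn3, the targeted gene, had 18, 18 and 16 counts in KO replicates 1, 2 and 3 and 172, 200 and 195 in WT replicates 1, 2 and 3. Of 14 hepatocyte markers, all were detected, their CPM (counts scaled to library size with TMM factors, the usual CPM unit) summed to between 164033 and 189199 in KO and between 145961 and 204478 in WT, and none passed the edgeR test (3 at an unadjusted p below 0.05, DESeq2 3 lower, limma-voom 0). Among all 12945 tested genes 3334 were at an unadjusted p below 0.05 in edgeR, and DESeq2 called 8.2% lower. Of the 14 markers, 11 had a negative log2 fold change, with a median of -0.27. In 5 every KO library lay below every WT library, against 16.6% of all tested genes. In 1, Trf, every KO library lay above, against 16.9%. Ttr (-0.96) and Apoa1 (-0.71), both plasma transport proteins, were the most negative. The part of the hepatocyte markers in the ER genes' difference was not tested. The comparison is 3 KO against 3 WT libraries throughout, and errors are SD over the 3 libraries of a group unless given as SE, the standard error of a log2 fold change.

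Of the 37 genes, 4 fell in KO and none rose: Derl3 and Derl2, which help move misfolded proteins out of the ER, Creld2, a luminal protein induced by ER stress, and Dnajb11, a co-chaperone of the chaperone BiP. That is 10.8% of the 37, beside 3.58% of the 12945 genes tested that were lower in KO and 3.36% that were higher (edgeR quasi-likelihood F-test, adjusted p below 0.05). Of the 37 log2 fold changes, 29 were negative, and their median was -0.39, beside 0.0027 over all genes tested. In 15 of the 37 (40.5%) every KO library lay below every WT library, against 16.6% of all genes, and in 1 (2.7%) every KO library lay above, against 16.9%. No gene of the 37 was called higher by edgeR, DESeq2 or limma-voom. At an unadjusted p below 0.05 in edgeR 2 were higher (Ern1 and Dnajb9) and 16 lower. The same threshold held 1614 higher and 1720 lower of all 12945 tested genes. The count of 4 depended on the libraries and the test. Leaving out KO replicate 2 brought it to 0, in a fit that called 0.405% of all genes lower. In that fit 10 of the 37 were lower and 1 was higher at an unadjusted p below 0.05. The share of all genes at that unadjusted threshold was not counted there, so the 10 has no background to be read against. The count was 1 when KO replicate 3 was omitted (0.997% of all genes lower) and 2 when WT replicate 3 was omitted (1.21%). With library size only the count was 1, beside 1.99% of all genes. That scaling moved the median of all genes to 0.21 and that of the 37 to -0.17, with 23 of the 37 negative. DESeq2 called 15 lower, beside 8.2% of all genes lower and 7.11% higher, and limma-voom called 5 lower, beside 3.42% of all genes lower and 3.28% higher.

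**Figure D1:**
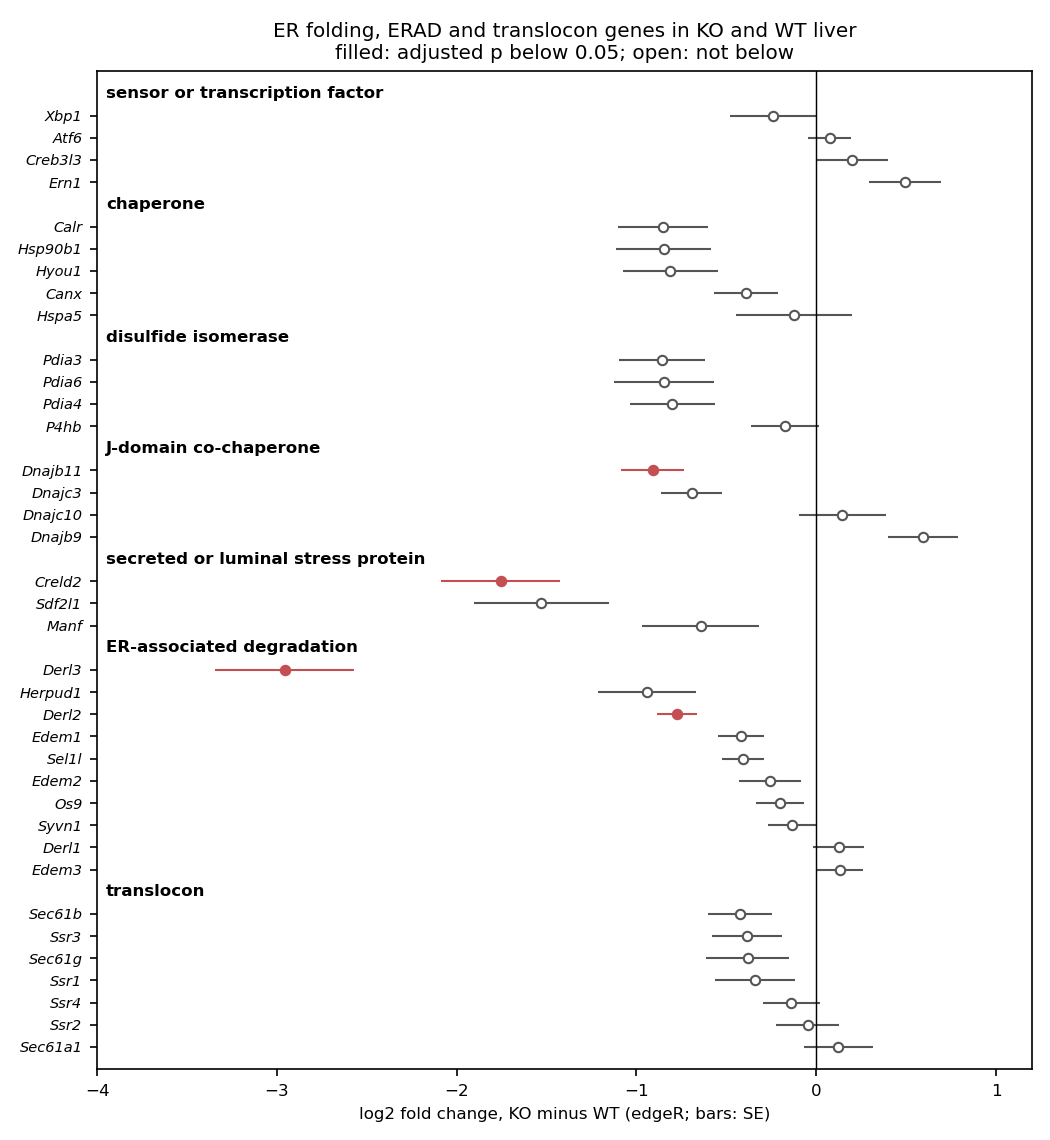
Log2 fold change (KO minus WT, horizontal axis) of the 37 genes by role, with bars for SE over 3 KO and 3 WT libraries. Filled points mark the 4 genes with an adjusted p below 0.05, all negative, and most chaperones and isomerases sit between -0.9 and -0.4 with open points.

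Bulk liver RNA was measured, so fewer cells of a type and less RNA per cell cannot be told apart. Gene-level counts also do not separate spliced from unspliced Xbp1, and carry no protein levels.

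Promoters of 11 of the 31 genes matched below hold a shared sequence element or its relative. Of the genes that fell, Derl3, Creld2 and Dnajb11 carry a match and Derl2 does not. Sdf2l1 (log2 fold change -1.53, not called) has none either. The elements are shown here with these values known. The ER stress response element (ERSE) is CCAAT and CCACG with 9 bases between them, and the related ERSE-II is ATTGG and CCACG with 1 base between. In cell lines both are known to bind ATF6 or XBP1, the ERSE together with NF-Y. Promoter sequences of 300 bases, from 250 before to 50 after the start, were read from RefSeq (GRCm38.p6) and matched 31 of the 37 genes by symbol, with 33 promoters. Both strands were searched, with exact matches required. An ERSE was found in 9 of 33 (27.3%), against 39 of 32851 promoters of all genes (0.119%), and an ERSE-II in 2 (6.06%), against 12 of all (0.0365%). The XBP1 core motif TGACGTGG was in 0 of the 33 and in 222 of all (0.676%), which says only that those letters are not in these windows. The list contains textbook targets of the response, so these shares describe the list and were not tested. The sites follow 5′ to 3′ on the strand that reads CCAAT or ATTGG first, each with 8 bases on either side, and the capitals mark the matched blocks.
Hspa5 ERSE, chr2:34772017-34772051, + strand: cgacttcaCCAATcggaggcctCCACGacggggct
Hsp90b1 ERSE, chr10:86705630-86705664, - strand: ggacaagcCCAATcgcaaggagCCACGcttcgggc
Hsp90b1 ERSE, chr10:86705525-86705559, + strand: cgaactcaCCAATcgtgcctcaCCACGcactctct
Calr ERSE, chr8:84847067-84847101, + strand: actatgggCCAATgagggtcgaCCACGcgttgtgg
Canx ERSE, chr11:50325792-50325826, - strand: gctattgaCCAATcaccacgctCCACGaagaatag
Pdia6 ERSE, chr12:17266483-17266517, + strand: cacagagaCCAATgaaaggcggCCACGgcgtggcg
Dnajb11 ERSE-II, chr16:22857844-22857870, + strand: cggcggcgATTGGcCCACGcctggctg
Dnajc3 ERSE, chr14:118937819-118937853, + strand: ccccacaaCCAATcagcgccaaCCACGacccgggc
Creld2 ERSE, chr15:88819512-88819546, - strand: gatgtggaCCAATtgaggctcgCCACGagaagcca
Derl3 ERSE, chr10:75893234-75893268, - strand: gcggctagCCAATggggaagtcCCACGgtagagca
Syvn1 ERSE, chr19:6046524-6046558, + strand: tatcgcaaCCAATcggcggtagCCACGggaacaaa
Herpud1 ERSE-II, chr8:94386369-94386395, + strand: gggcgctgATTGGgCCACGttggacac

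The whole promoters of Derl3 and Creld2, both lower in KO, and of Hspa5, which was not called, are shown 5′ to 3′ in the direction of the gene, with the ERSE blocks in capitals. In Derl3 and Creld2 the element lies on the opposite strand and so reads CGTGG first, and its leftmost base is 156 and 126 bases before the start. In Hspa5 it lies on the gene's strand, 65 bases before.
Derl3 promoter, chr10:75893148-75893447, + strand: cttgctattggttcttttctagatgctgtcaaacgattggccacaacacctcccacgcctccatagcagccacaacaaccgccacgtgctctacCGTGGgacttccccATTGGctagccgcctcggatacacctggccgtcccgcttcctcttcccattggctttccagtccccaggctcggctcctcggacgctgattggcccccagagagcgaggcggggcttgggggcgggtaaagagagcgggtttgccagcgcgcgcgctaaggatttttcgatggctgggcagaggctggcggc
Creld2 promoter, chr15:88819396-88819695, + strand: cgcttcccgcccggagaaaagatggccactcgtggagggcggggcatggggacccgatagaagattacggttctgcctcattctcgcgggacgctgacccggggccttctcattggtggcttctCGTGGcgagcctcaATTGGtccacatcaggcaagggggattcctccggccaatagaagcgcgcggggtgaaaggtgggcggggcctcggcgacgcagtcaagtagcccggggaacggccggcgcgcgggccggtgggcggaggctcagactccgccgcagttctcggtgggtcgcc
Hspa5 promoter, chr2:34771840-34772139, + strand: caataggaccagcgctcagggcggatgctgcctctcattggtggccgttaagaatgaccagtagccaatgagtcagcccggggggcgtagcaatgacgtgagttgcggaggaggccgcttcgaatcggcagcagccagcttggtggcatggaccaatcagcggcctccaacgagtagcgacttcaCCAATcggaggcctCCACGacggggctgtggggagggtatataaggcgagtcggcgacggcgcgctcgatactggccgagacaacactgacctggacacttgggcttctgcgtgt

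All 11 genes with an ERSE or ERSE-II had a negative log2 fold change, from -2.96 in Derl3 to -0.12 in Hspa5, with a median of -0.85, and 3 of them fell (Derl3, Creld2, Dnajb11). The 20 genes with a promoter and no match had a median of -0.30, with 15 negative and 1 that fell, Derl2. Of all 10326 tested genes with a promoter in the table, 371 were lower, 338 were higher and 5127 were negative, with a median of 0.0033. Over all 12945 tested genes the shares were 3.58% lower and 3.36% higher. Promoters of 15 other tested genes held a match: 3 fell, 1 rose, 11 were negative and the median was -0.27. One of the 3 was Ero1lb, an ER oxidase that recharges disulfide isomerases, at 52.8, 38.1 and 42.0 CPM in KO and 91.3, 122 and 113 in WT (log2 fold change -1.30, SE 0.17, edgeR adjusted p = 0.00909). The others were Acacb, an acetyl-CoA carboxylase (log2 -2.36), Xlr3a (log2 -2.01), whose family has near-identical copies so that its count is uncertain, and the riser Spats2l (log2 1.79). Of the 6 fits without 1 library, Acacb was called in 3, Xlr3a in 2 and Spats2l in 5. Xlr3a was also lost with upper-quartile factors (adjusted p = 0.0525), library size only (0.0731) and limma-voom (0.0638). No difference between genes with and without a match was tested.

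**Figure D2:**
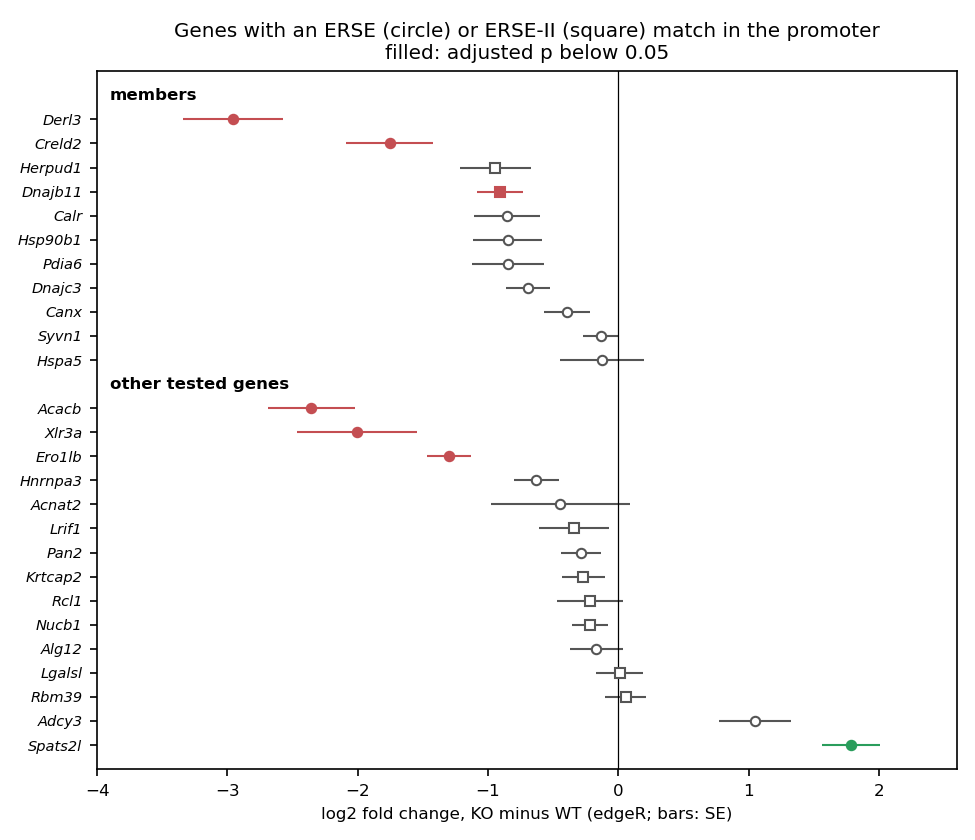
Log2 fold change (KO minus WT, with SE bars) of the 26 tested genes with an ERSE (circles) or ERSE-II (squares) match, split into 11 genes of the ER list and 15 others. Filled points passed an adjusted p of 0.05. All 11 of the ER list are left of 0, and the 15 others run from -2.36 to 1.79.

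Among the sensors and transcription factors none of the 4 was called, and the KO and WT libraries overlapped in all of them. Xbp1 was at 341, 304 and 231 CPM in KO and 249, 437 and 349 in WT (log2 fold change -0.24, SE 0.24, edgeR adjusted p = 0.571). Atf6 was at 123, 102 and 113 CPM in KO and 103, 114 and 104 in WT (log2 0.08, SE 0.12), with overlapping ranges. Ern1 was at 60.6, 45.8 and 34.3 CPM in KO and 33.4, 35.8 and 30.7 in WT. KO replicate 3 lay inside the WT range, and the log2 difference of 0.49 (SE 0.20) missed the threshold (edgeR adjusted p = 0.179). Creb3l3 was at 226, 343 and 357 CPM in KO and 241, 297 and 268 in WT (log2 0.20, SE 0.20), with KO replicate 1 the lowest of all 6. By DESeq2 and limma-voom too, none of the 4 was called.

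The chaperones are among the most abundant proteins of the ER. All 5 had negative log2 fold changes (median -0.81) and none was called by edgeR or limma-voom. In edgeR 3 were lower at an unadjusted p below 0.05, as were 1720 of all 12945 tested genes. DESeq2 called 3 lower, beside 8.2% of all genes. Calr, the lectin chaperone calreticulin, was at 875, 523 and 511 CPM in KO and 1022, 1110 and 1315 in WT. Its groups did not overlap (log2 -0.85, SE 0.25, edgeR adjusted p = 0.0862), and it passed without KO replicate 1 (log2 -1.14, adjusted p = 0.0400). Hsp90b1, the ER form of the chaperone HSP90, was at 772, 461 and 521 CPM in KO and 908, 907 and 1346 in WT (log2 -0.85, SE 0.26, edgeR adjusted p = 0.0942). Hspa5, which encodes BiP, the chief ER chaperone and a regulator of all the sensors, was at 1587, 813 and 793 CPM in KO and 958, 1048 and 1473 in WT. KO replicate 1 was the highest library of all 6 and the other KO libraries were the lowest, so the mean difference was small (log2 -0.12, SE 0.32, edgeR adjusted p = 0.840), and its sign turned positive when KO replicate 2, KO replicate 3 or WT replicate 3 was left out and with library size only. Hyou1, which renews the nucleotide bound to BiP, was at 184, 109 and 104 CPM in KO and 177, 248 and 273 in WT (log2 -0.81, SE 0.26). Canx, the membrane lectin calnexin, was at 390, 279 and 304 CPM in KO and 374, 441 and 463 in WT (log2 -0.39, SE 0.18). In both, KO replicate 1 reached into the WT range.

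Of the 4 disulfide isomerases none was called by edgeR or limma-voom, and all log2 fold changes were negative with a median of -0.82. In edgeR 3 were lower at an unadjusted p below 0.05, as were 1720 of all 12945 tested genes. DESeq2 called 3 lower, beside 8.2% of all genes. Pdia3, which works with calnexin and calreticulin on glycoproteins, was at 556, 334 and 380 CPM in KO and 683, 696 and 922 in WT (log2 -0.86, SE 0.24, edgeR adjusted p = 0.0715). Pdia4 and Pdia6 gave log2 values of -0.80 (SE 0.24) and -0.85 (SE 0.28), and in these 3 genes every KO library lay below every WT library. For Pdia6 the gap was slight, with the highest KO library at 363 CPM and the lowest WT library at 364. P4hb, the founding disulfide isomerase and also a subunit of collagen prolyl hydroxylase, was at 2545, 2193 and 2485 CPM in KO and 2621, 2461 and 3075 in WT (log2 -0.18, SE 0.19). Per length it was the most abundant of the 37 genes, at 842 ± 65.8 CPM per kilobase of merged exons in KO and 950 ± 111 in WT, and Derl3 was the least abundant, at 0.467 ± 0.0872 and 3.65 ± 1.52.

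The J-domain proteins, which bring substrates to BiP and start its ATP cycle, had log2 fold changes of both signs, 2 negative and 2 positive. In edgeR 3 of the 4 were at an unadjusted p below 0.05, as were 3334 of all 12945 tested genes. EdgeR called 1 lower, DESeq2 2 and limma-voom 1, beside 3.58%, 8.2% and 3.42% of all genes lower. Dnajb11, on chromosome 16 from 22857845 to 22879634 (mm10), was at 104, 76.6 and 72.1 CPM in KO and 140, 155 and 180 in WT. The groups did not overlap and it fell 1.88-fold (log2 -0.91, SE 0.18, edgeR adjusted p = 0.0282). The call was lost in the fits that left out KO replicate 2, KO replicate 3 or WT replicate 3, where the highest adjusted p was 0.129, and with library size only (0.0902). Dnajc3, a co-chaperone that also inhibits PERK, was at 269, 213 and 209 CPM in KO and 325, 363 and 429 in WT, again without overlap (log2 -0.69, SE 0.17, edgeR adjusted p = 0.0537). Dnajb9, a BiP co-chaperone that restrains IRE1 and is a known XBP1 target, was the exception. It was at 63.6, 46.3 and 51.3 CPM in KO and 33.9, 28.4 and 44.5 in WT, the only 1 of the 37 genes in which every KO library was above every WT library (log2 0.59, SE 0.19, edgeR adjusted p = 0.108). Dnajc10, a J-domain reductase of ERAD, was at 78.1, 48.4 and 57.9 CPM in KO and 52.6, 42.1 and 71.9 in WT (log2 0.14, SE 0.24), and its sign turned negative without KO replicate 1 or WT replicate 2.

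The 3 small luminal or secreted stress proteins had negative values with the largest median of any role, -1.53. Creld2, on chromosome 15 from 88819646 to 88826683 (mm10), was at 42.9, 21.3 and 21.4 CPM in KO and 70.6, 95.7 and 122 in WT. It fell 3.37-fold with no overlap (log2 -1.75, SE 0.33, edgeR adjusted p = 0.0288). The same 3 libraries decided this call (highest adjusted p when 1 was left out, 0.115), as did scaling by library size only (0.0536). Sdf2l1, a partner of Dnajb11 in the BiP cycle, was at 39.3, 16.5 and 15.8 CPM in KO and 56.5, 64.9 and 84.9 in WT. The groups did not overlap (log2 -1.53, SE 0.37, edgeR adjusted p = 0.0561), and it passed without KO replicate 1, with limma-voom, with DESeq2 and without robust dispersion. Manf, a secreted survival factor retained in the ER of unstressed cells, was at 120, 57.0 and 61.0 CPM in KO and 93.7, 118 and 159 in WT (log2 -0.64, SE 0.33, edgeR adjusted p = 0.264). In all 3 genes KO replicate 1 was the highest of its group and WT replicate 3 the highest of all.

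**Figure D3:**
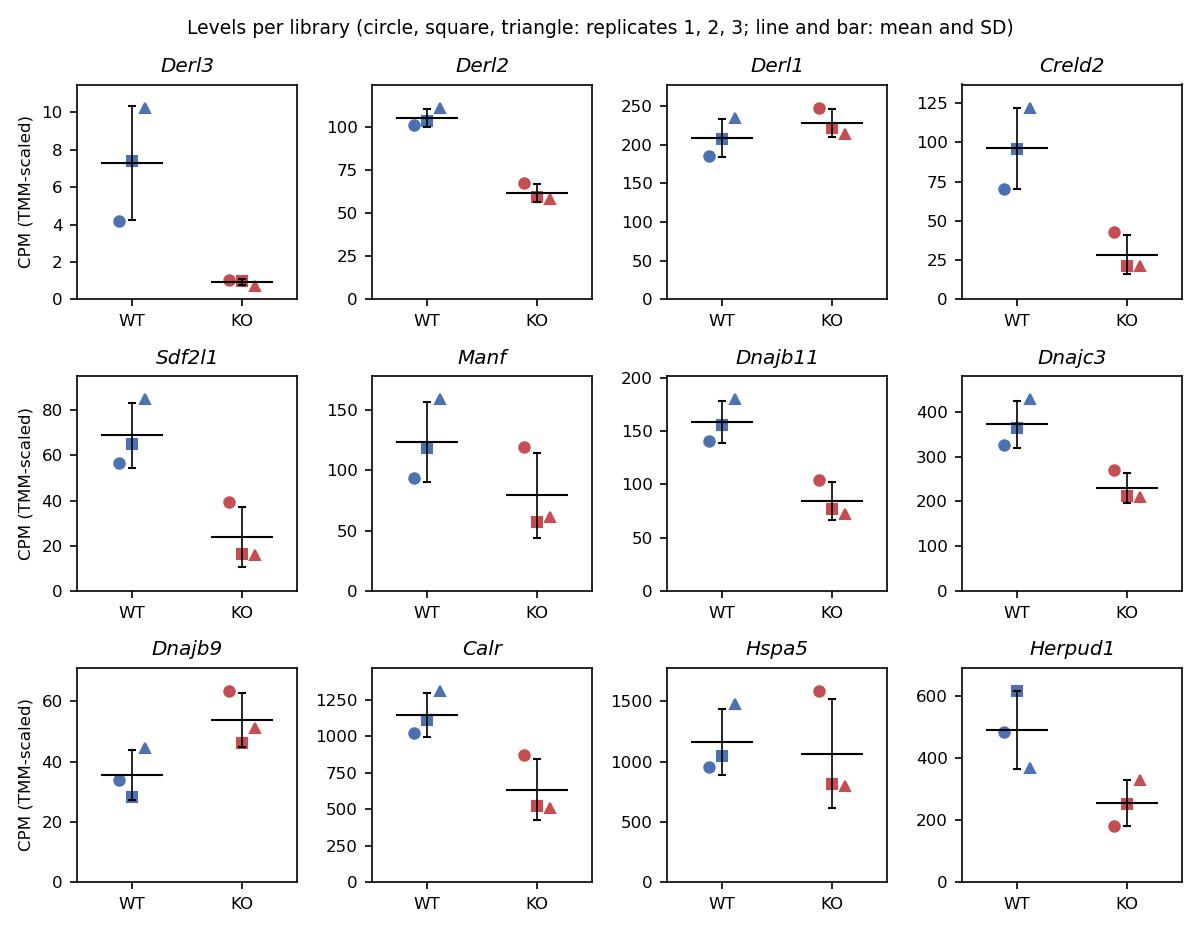
TMM-scaled CPM (vertical axes, from 0) of 12 genes in the WT (blue) and KO (red) libraries, with the mean and SD as line and bar. Derl3, Derl2, Creld2 and Dnajb11 passed the test. Derl1 overlaps between groups, Dnajb9 is higher in each KO library than in any WT library, and for Hspa5 the circle of KO replicate 1 stands at 1587 CPM above all others.

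Of the 10 ERAD genes 2 fell and none rose (8 negative, median -0.33), beside 3.58% of all tested genes lower. In edgeR 5 were lower at an unadjusted p below 0.05, as were 1720 of all 12945 tested genes. DESeq2 called 5 lower, beside 8.2% of all genes, and limma-voom called 2, beside 3.42%. The Derlins, membrane proteins of the retrotranslocation channel, differed from each other. Derl3, on chromosome 10 from 75893413 to 75895941 (mm10), was at 1.06, 1.00 and 0.732 CPM in KO and 4.19, 7.38 and 10.3 in WT. It fell 7.76-fold (log2 -2.96, SE 0.39, edgeR adjusted p = 0.00909), the largest change of the 37 and from the lowest level, and 1 omission ended its call, that of KO replicate 2 (adjusted p = 0.0589). Derl2, on chromosome 11 from 71007164 to 71019841 (mm10), was at 67.6, 59.2 and 58.5 CPM in KO and 101, 104 and 111 in WT. Its groups were tight and apart, and it fell 1.71-fold (log2 -0.77, SE 0.11, edgeR adjusted p = 0.0123). Leaving out KO replicate 2 gave an adjusted p of 0.0777, leaving out KO replicate 3 gave 0.0580, and library size only gave 0.0599. Derl1 was at 248, 222 and 213 CPM in KO and 185, 208 and 234 in WT, with overlap (log2 0.12, SE 0.14, edgeR adjusted p = 0.617). Whether the 3 changes differ from each other was not tested.

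The Edem proteins, which trim mannose from misfolded glycoproteins, gave 1 gene without overlap. Edem1 was at 239, 210 and 245 CPM in KO and 305, 310 and 314 in WT (log2 -0.42, SE 0.13, edgeR adjusted p = 0.0913). Edem2 was at 111, 86.6 and 94.0 CPM in KO and 119, 92.0 and 137 in WT (log2 -0.26, SE 0.17), and Edem3 at 53.3, 41.5 and 45.6 CPM in KO and 40.4, 40.9 and 46.8 in WT (log2 0.13, SE 0.13). Both overlapped. The ubiquitin ligase of the pathway pairs Syvn1 with its adaptor Sel1l. Sel1l was at 144, 126 and 142 CPM in KO and 172, 190 and 185 in WT (log2 -0.41, SE 0.12, edgeR adjusted p = 0.0819), without overlap, while Syvn1 overlapped (log2 -0.13, SE 0.14). Herpud1, which assembles the ligase complex, was at 181, 252 and 329 CPM in KO and 483, 617 and 367 in WT. Its groups did not overlap (log2 -0.94, SE 0.27, edgeR adjusted p = 0.0818), and KO replicate 1 was the lowest and KO replicate 3 the highest of the KO libraries, an order that Os9 and Creb3l3 shared. Os9, a lectin that hands glycoproteins to the ligase, was at 258, 274 and 292 CPM in KO and 305, 343 and 299 in WT (log2 -0.20, SE 0.13), with a small gap between the groups.

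None of the 7 translocon genes was called by edgeR, DESeq2 or limma-voom. In edgeR 1, Sec61b, was lower at an unadjusted p below 0.05, as were 1720 of all 12945 tested genes. All 7 overlapped between groups, with log2 fold changes from -0.42 in Sec61b to 0.12 in Sec61a1. Sec61a1, the channel itself, was at 418, 285 and 288 CPM in KO and 284, 283 and 342 in WT, and turned to -0.07 without KO replicate 1. Sec61b and Sec61g, its small partners, gave -0.42 (SE 0.18) and -0.38 (SE 0.23). Ssr1, Ssr2, Ssr3 and Ssr4, subunits of the TRAP complex that assists the channel, gave -0.34, -0.05, -0.39 and -0.14, and the sign of Ssr2 turned positive without KO replicate 2 or 3 or WT replicate 3. Ssr3, the most abundant of the 7 per length, was at 348, 241 and 284 CPM in KO and 329, 359 and 453 in WT.

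Single libraries stood high or low across most of the 37 genes. KO replicate 1 was the highest KO library in 33 of the 37 (89.2%), against 39.9% of all tested genes, and KO replicate 2 in none. WT replicate 3 was the highest WT library in 29 (78.4%), against 27.7%. The median of the 37 on the log2 scale, against the WT mean, was -0.11, -0.56 and -0.51 in KO replicates 1, 2 and 3 and -0.15, -0.03 and 0.20 in WT replicates 1, 2 and 3. Without KO replicate 1 the median log2 fold change was -0.53, 31 of 37 were negative and 6 fell, the 4 above with Calr and Sdf2l1, in a fit that called 1.15% of all genes lower. The summed hepatocyte markers were 164033, 166806 and 189199 CPM in KO replicates 1, 2 and 3 and 164305, 204478 and 145961 in WT replicates 1, 2 and 3. The labels give no batch, and the part of the libraries' own state in the comparison was not tested.

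**Figure D4:**
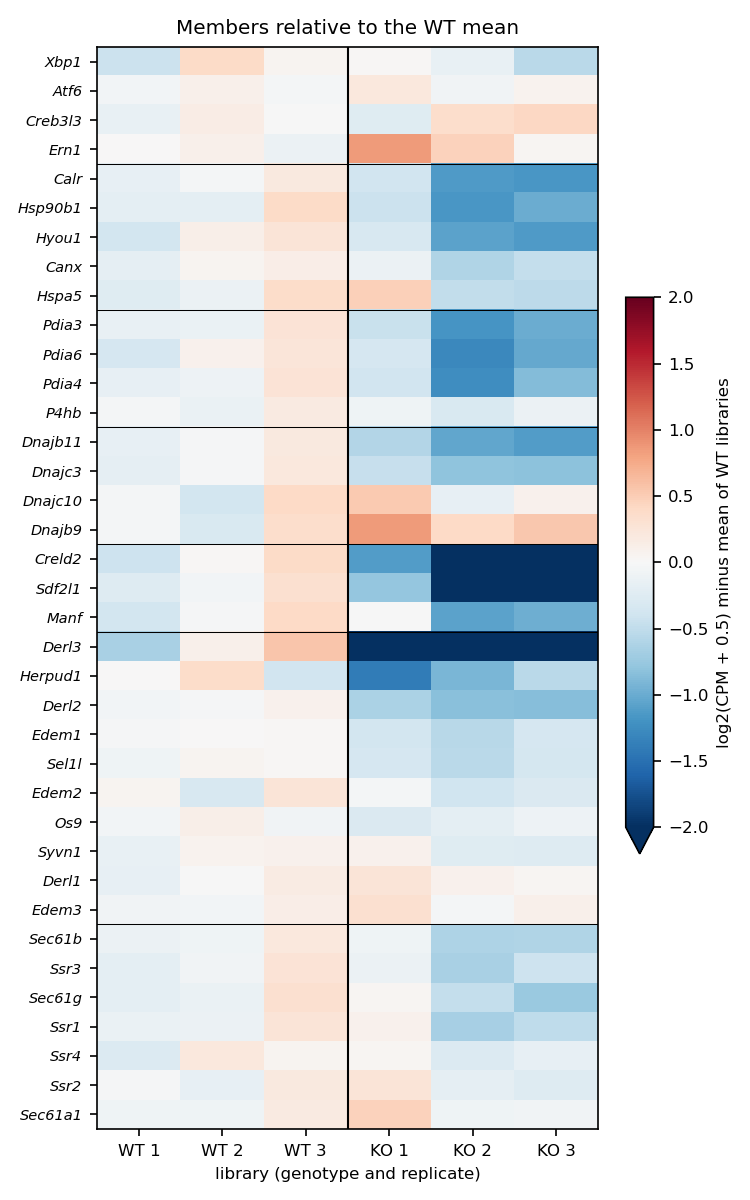
Each gene's log2(CPM + 0.5) in the 6 libraries minus its mean over the WT libraries, with rules between roles and colours cut at -2 and 2. KO replicates 2 and 3 are blue for most chaperones, isomerases and stress proteins, KO replicate 1 is paler, and Dnajb9 is red in all KO libraries, Ern1 in KO replicates 1 and 2.

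**Figure D5:**
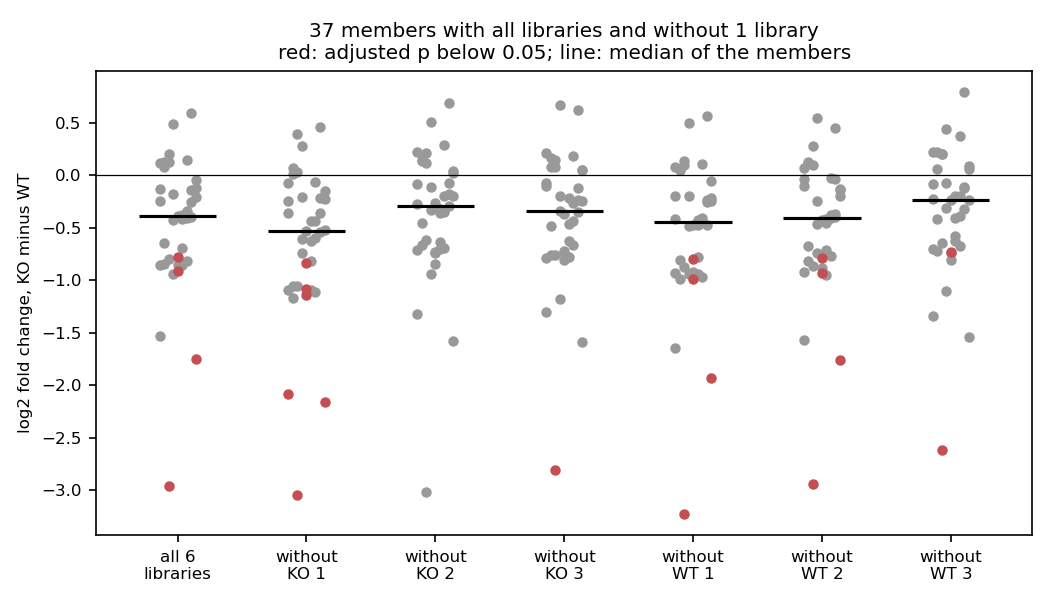
Log2 fold changes of the 37 genes (points) with all 6 libraries and without each in turn, with genes called lower in red and the median as a line. The medians run from -0.53 without KO replicate 1 to -0.23 without WT replicate 3, and the red points number 4, 6, 0, 1, 4, 4 and 2 from left to right.

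Other genes of the pathway were taken from lists of named genes outside the 37. The PERK arm slows translation and raises ATF4. Of 11 genes listed for it 6 rose and 1 fell, with a median log2 fold change of 1.08, beside 3.36% of all tested genes higher and 3.58% lower. Eif2ak3, which encodes PERK itself, was not called (log2 0.67, edgeR adjusted p = 0.0689), nor was Eif2s1 of the same list (log2 0.19, adjusted p = 0.427). PERK activity was not measured, and its part in these changes was not tested. Ddit3, which encodes the transcription factor CHOP, was at 49.7, 34.0 and 27.3 CPM in KO and 6.02, 3.55 and 4.38 in WT (log2 2.99, SE 0.29, edgeR adjusted p = 0.00429), and held without any 1 library. Atf4 rose from 55.3 ± 8.73 to 117 ± 17.8 CPM (log2 1.08, edgeR adjusted p = 0.0151), and Trib3 and Nupr1, known ATF4 or CHOP targets, rose by log2 3.74 and 2.94. Leaving out KO replicate 2 took Trib3, Atf4 and Nupr1 to adjusted p-values of 0.0586, 0.0775 and 0.0871, and Trib3 and Atf4 were also lost when WT replicate 3 was omitted, as Nupr1 was when KO replicate 1 or 3 was. Chac1, a glutathione-degrading enzyme also known as a target of the arm, fell (log2 -1.01, edgeR adjusted p = 0.0282) and was lost in 4 of the 6 fits without 1 library, those omitting any KO replicate or WT replicate 3, and with library size only (log2 -0.79, adjusted p = 0.0641). The PERK arm list and the 37 genes had medians of opposite sign, 1.08 and -0.39, in the same 6 libraries. Both lists were chosen with earlier results of these data known, and the difference between them was not tested.

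Of 9 other sensors and processing proteases 1 rose, Creb3l2, a relative of Creb3l3 (log2 0.77, SE 0.16, edgeR adjusted p = 0.0329). It missed the threshold in each of the 6 fits without 1 library (adjusted p of up to 0.0900). Of 9 genes known as Creb3l3 targets in mouse liver 3 rose and 1 fell. Of all tested genes, for this list and the sensors, 3.36% rose and 3.58% fell. Fgf21, a hormone of fasting and stress, rose by log2 4.87 (edgeR adjusted p = 0.00212), with 28.7 CPM or more in every KO library and 1.66 or less in every WT library. Apoa4, an apolipoprotein, rose by log2 3.10 (adjusted p = 0.0160) and Hamp, the iron hormone hepcidin, by 1.71 (adjusted p = 0.0460), while Crp, an acute phase protein, fell (log2 -1.04, adjusted p = 0.0185). Apoa4, Hamp and Crp lost their calls when KO replicate 2 or 3 was left out, and Hamp also when KO replicate 1 or WT replicate 3 was. Fgf21 is also a known target of ATF4, so the lists are not separate readouts.

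For the lists that follow, edgeR called 3.58% of all tested genes lower and 3.36% higher, and DESeq2 called 8.2% and 7.11%. At an unadjusted p below 0.05 in edgeR were 3334 of all 12945 tested genes, 1720 of them lower and 1614 higher. Among 28 tested enzymes of the calnexin cycle and oxidative folding 4 fell and none rose, with a median of -0.07. Besides Ero1lb these were Pdia5, a disulfide isomerase (log2 -0.69, edgeR adjusted p = 0.0275), Sil1, a nucleotide exchange factor of BiP (log2 -0.62, adjusted p = 0.0322), and Erp44, which retains oxidases in the early secretory pathway (log2 -0.62, adjusted p = 0.0484). Ero1lb lost its call only when KO replicate 2 was omitted (adjusted p = 0.0586), Pdia5 and Sil1 when any KO replicate or WT replicate 3 was, and Erp44 with any of the 6 libraries omitted, and with library size only Pdia5, Sil1 and Erp44 were not called. Pdia2, a pancreatic isomerase, had no count in any library. None of 28 other tested ERAD genes was called by edgeR or limma-voom (6 at an unadjusted p below 0.05 in edgeR, DESeq2 1 lower and 2 higher), and none of 16 targeting and signal peptidase genes (5 at an unadjusted p below 0.05, DESeq2 2 lower). Of 12 oligosaccharyltransferase genes Magt1 fell (log2 -0.61, edgeR adjusted p = 0.0461), and of 23 genes of ER to Golgi transport Sar1b, a GTPase of the vesicle coat, fell (log2 -0.65, adjusted p = 0.0270). Magt1 was called in 1 of the 6 fits without 1 library and Sar1b in 2, and neither was called with library size only. With upper-quartile factors Magt1 (adjusted p = 0.0588) and Erp44 (0.0628) also lost their calls. With library size only the medians of the folding, other ERAD, targeting and oligosaccharyltransferase lists turned positive, at 0.14, 0.14, 0.03 and 0.02.

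Plasma cells and exocrine pancreas carry very high levels of ER chaperone and ERAD genes, so markers of both were read in the same libraries. Of 14 plasma and B cell markers, 12 were in the table and 10 were tested. Their summed level was 353 to 494 CPM in KO and 275 to 434 in WT, most of it Sdc1, which hepatocytes also express. All 10 log2 fold changes were positive and none was called by edgeR (3 at an unadjusted p below 0.05, DESeq2 1 higher, limma-voom 0). Among all 12945 tested genes 1614 were higher at that unadjusted p in edgeR, and DESeq2 called 7.11% higher. The part of plasma and B cells in the ER genes' difference was not tested. Jchain, a defining plasma cell gene, was at 15.3 ± 8.48 CPM in KO and 5.81 ± 2.83 in WT, and Tnfrsf17 was at 0 counts in all WT libraries and at most 3 in KO. Of 16 exocrine pancreas markers 12 were at 0 in all libraries, among them the defining Prss1, Prss2, Cpb1 and Pnlip. The summed level was 7.82 to 8.88 CPM in KO and 14.2 to 57.8 in WT, nearly all from Cela1, which was at 7.35, 7.45 and 8.53 CPM in KO and 13.4, 56.9 and 21.8 in WT (edgeR adjusted p = 0.0607). The part of Cela1-expressing cells in the ER genes' difference was not tested.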

How the data were processed

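Liver RNA from 3 Sesn3 KO and 3 WT mice was sequenced as 1 library each. The authors deposited raw read counts per gene symbol for the 6 libraries in 1 table. The submitters' processing notes name STAR 2.5, featureCounts of Subread 1.5.3, edgeR 3.20.8 and build mm10, without saying which step each did. The sources used here name no annotation, strand setting or rule for multi-mapped reads, so overlapping genes and near-identical copies stay uncertain. Totals ran from 18882220 to 24098512 counts.

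Counts were fitted in edgeR 4.0.16 (R 4.3.3, limma 3.58.1): genes with enough counts (filterByExpr, minimum count 10, minimum total 15), TMM scaling, robust quasi-likelihood F-test of KO against WT over 12945 genes, Benjamini-Hochberg adjustment, threshold 0.05. Each SE was obtained as the size of the log2 fold change over the square root of its F statistic, and the common BCV (biological coefficient of variation) came to 0.232. Alternatives were RLE, upper-quartile and library-size scaling, DESeq2 1.42.0, limma-voom, a fit that was not robust, no filter or a minimum of 1 CPM in 3 libraries, and leaving out each library. A rank or permutation test of 3 against 3 cannot go below p = 0.10, so none was used. Replicate numbers follow accession order. The labels do not say that libraries came from separate litters or days, and p-values measure the spread between these libraries only. CPM per kilobase uses merged exons of GENCODE vM21 (mm10). Promoters came from RefSeq (GRCm38.p6). Atf6, Hyou1, Manf, Derl1, Sec61a1 and Ssr2 were not matched.

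The 37 genes and the other lists were chosen with earlier results of these data known. Named genes are all 37, with values per library for those called, the sensors, the Derlins, the Edems and the most abundant per role. From each other list the called genes are named, at most 4 by smallest p. Outside that rule Chac1, the PERK arm gene that fell, was added, as were Eif2ak3, Eif2s1 and Pdia2, which were not called. Other values per library were added after the values were seen, as were the genes with a promoter match.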

Additional observations from a re-analysis of the deposited data

How the results depend on the processing

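The count of 4 genes lower was 4 with RLE or upper-quartile factors, with no filter and with 1 CPM in 3 libraries, 5 with limma-voom and without robust dispersion (Sdf2l1 added), 15 with DESeq2 and 1 with library size only. Leaving out 1 library gave from 0 (without KO replicate 2) to 6 (without KO replicate 1). No gene of the 37 was called higher in any of these fits. Their median log2 fold change ran from -0.53 to -0.23 without 1 library and was -0.17 with library size only. With upper-quartile factors Ssr2 turned to 0.0073. With library size only, Hspa5 turned to 0.099, P4hb to 0.029, Syvn1 to 0.086, Os9 to 0.011, Ssr2 to 0.17 and Ssr4 to 0.083. Without 1 library, Hspa5 ran from -0.52 to 0.090, Ssr2 from -0.22 to 0.058, Dnajc10 from -0.059 to 0.38 and Sec61a1 from -0.074 to 0.22. The cause of these shifts was not tested. Fits without 1 library have fewer samples, while the fits with upper-quartile factors or library size only used all 6 libraries. No paired analysis was possible because the labels give no replicate numbers that KO and WT libraries share. Derl3 rests on about 1 CPM in KO, so its fold is the least precise of the 4 genes that fell.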
